A study of Mus musculus with 7 samples.

Results

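The genes described are 8 members of the neuropilin, semaphorin and plexin families, namely Nrp1, Nrp2, Sema4a, Sema4b, Sema4d, Plxnb2, Plxnc1 and Plxnd1. They were chosen with measured values of these arrays in view, for the difference between Lkb1 KO and Lkb1 WT samples, so that difference is given for them as a description. Where the fit across all probe sets called a member, the call is stated as a count and supports nothing. All probe sets whose single annotated gene symbol was a member were taken, which gave 17 of the 22626 non-control probe sets on the array, for 8 of 12393 genes. A probe set is a group of short probes that together measure 1 transcript region. Nrp1 has 3 of them, Plxnc1 has 4, Sema4d has 3, Sema4a and Sema4b have 2 each, and Nrp2, Plxnb2 and Plxnd1 have 1 each. Probe sets of 1 gene share its transcripts and are not replicates of each other.

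RNA was measured in LSK cells, the fraction of bone marrow that lacks mature lineage markers (Lin-) and carries Sca-1 and c-Kit, in which blood stem cells and early progenitors are found. The 4 Lkb1 KO samples (numbers 4 to 7) came from Lkb1 L/L mice carrying rosa26CreERT2, a Cre recombinase under the ubiquitous Rosa26 locus that acts once tamoxifen is given. The 3 Lkb1 WT samples (numbers 5 to 7) came from Lkb1 L/L mice without that Cre allele. Both groups carried the floxed Lkb1 gene and shared 1 strain, named C57BL/Ka-CD45.2:Thy-1.1, both received tamoxifen for 5 days, and cells were taken 1 day after the last injection from femoral and tibial marrow. Cre and loss of Lkb1 therefore came together and cannot be told apart, and the Rosa26 locus is not restricted to blood cells. Each sample held 15000 to 20000 sorted cells, from which about 10 ng of total RNA was amplified. The labels name adult mice without an age or sex, and whether samples are of separate animals is not stated, so p-values reflect only how these samples vary, perhaps for technical reasons.

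Semaphorins are a large family of secreted and membrane-bound signalling proteins, first known as guidance cues for growing axons and later found on immune and vascular cells. Plexins are their receptors and pass the signal to small GTPases that set cell adhesion, the cytoskeleton and movement. Neuropilins have short cytoplasmic tails and act as co-receptors, Nrp1 and Nrp2 both binding class 3 semaphorins together with plexins of class A and also binding members of the VEGF family. The class 4 semaphorins among the members are membrane proteins, and Sema4a and Sema4d are known for roles in T cell and B cell responses.

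The promoters of both neuropilin genes are shown because their levels lay in opposite directions in the KO samples. Each is the 250 bases before the gene start from RefSeq (mouse build GRCm38.p6), read 5′ to 3′ on the plus strand, on which both genes lie. The Nrp1 window is chr8:128358823-128359072 and the Nrp2 window is chr1:62703067-62703316. Capitals mark GGGCGG or its reverse complement CCGCCC, the core of the GC box.
Nrp1: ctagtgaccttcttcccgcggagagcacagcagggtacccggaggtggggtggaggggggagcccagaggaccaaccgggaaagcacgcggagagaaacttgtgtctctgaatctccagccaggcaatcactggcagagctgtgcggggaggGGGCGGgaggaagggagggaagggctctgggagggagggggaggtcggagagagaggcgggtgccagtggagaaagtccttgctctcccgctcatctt
Nrp2: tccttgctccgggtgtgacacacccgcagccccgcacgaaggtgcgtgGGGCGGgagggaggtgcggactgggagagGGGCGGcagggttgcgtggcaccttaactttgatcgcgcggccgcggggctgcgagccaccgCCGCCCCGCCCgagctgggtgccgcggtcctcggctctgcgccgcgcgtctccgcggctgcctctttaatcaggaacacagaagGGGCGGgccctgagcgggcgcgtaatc
The Nrp1 window had a GC content of 64.4% and held 1 match. The Nrp2 window had a GC content of 72.4% and held 5 matches, 3 of GGGCGG and 2 of CCGCCC, and those of CCGCCC overlapped by 1 base. Neither held TATAAA on either strand. Over 32851 windows of the same length from 27025 genes, the median GC content was 52.4%, 32.7% of windows held the GC box on either strand, 1.93% held 5 or more, and 12.4% held TATAAA on either strand. A match is a run of letters and not a site shown to be bound.

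The arrays differed in brightness as deposited. Their trimmed mean signal, leaving out 2% at each end, was 360.1 to 424.9 in the KO samples and 227.9 to 339.4 in the WT samples (two-sided exact permutation p = 0.0286, the smallest that 4 against 3 samples allow). All log2 values below were therefore taken after quantile normalization. The Actb control probe sets for the 3' end read brighter than those for the 5' end, which reflects how long the amplified RNA is, by a ratio of 11.41 to 12.29 in KO, against 12.6 to 13.11 in WT (exact permutation p = 0.0571). The same ratio of the Gapdh controls overlapped between the groups, at 7.49 to 7.95 in KO, against 6.68 to 9.46 in WT (exact permutation p = 0.6). The brightest probe set of Stk11, the gene encoding Lkb1, read 162.5, 123.4, 91.2 and 74.1 signal units in KO samples 4 to 7, and 187.3, 115.2 and 99.3 in WT samples 5 to 7, a log2 difference of -0.56 ± 0.19 (SE) with limma's adjusted p = 0.135. Its dimmer probe set lay the other way, at 0.70 with overlap, and was too dim to enter the fit. The place of these probes relative to the deleted exons is unknown, and neither probe set is a check of the labels. Kit, which encodes the c-Kit of the sort gate, read 1394.5 to 1659.3 units in KO, against 1209.9 to 1933.4 in WT on its brighter probe set. After normalization this probe set was lower in every KO sample, with a difference of -0.43 ± 0.10 (SE, limma's adjusted p = 0.0578). The dimmer Kit probe set, too dim to enter the fit, was at 0.03 with overlap. Ly6a, which encodes Sca-1, has no probe set with a single symbol.

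The summed level of 12 granulocyte and monocyte markers was 8815.4 to 12286.8 in the KO samples and 26095.8 to 35680.1 in the WT samples on the normalized signal scale (exact permutation p = 0.0286), and all 12 lay above background on every array. Ngp and S100a8 made up most of this sum. Of the 12, 9 were lower in every KO sample after normalization, though Mmp9 among them overlapped as deposited. Cd14 and Ccr2 overlapped between the groups. Itgam was higher in every KO sample, at 44.5 to 55.7 in KO, against 28.3 to 38.1 in WT. The sums of the erythroid markers (677.1 to 824.2 in KO, against 915.7 to 1180.9 in WT) and of the stromal markers (1344.8 to 1658.8 in KO, against 1697.0 to 2584.4 in WT) were also lower in every KO sample (exact permutation p = 0.0286 each). All these sums were taken after normalization only. Of 6 erythroid markers measured, 4 were lower in every KO sample after normalization. Hba-a2 was higher in each KO sample, at 326.1 to 366.9 in KO, against 240.6 to 266.7 in WT. As deposited, Ermap and Hba-a2 stayed apart, while Klf1, Car1 and Epor overlapped between the groups. Pdgfrb made up most of the stromal sum and overlapped between the groups, and of the 8 stromal markers Col1a2 alone was apart. Megakaryocyte and platelet markers summed to 1359.1 to 1759.8 in KO, against 1750.6 to 1985.7 in WT (exact permutation p = 0.0857). In these mixed samples, fewer cells of a type and less RNA per cell cannot be told apart, and the part of these shifts in the values below was not tested.

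Nrp1 RNA was higher in every KO sample than in every WT sample by all 3 of its probe sets, and its brightest probe set had the largest normalized difference among the 17. Nrp2 lay the other way at low signal. Among the semaphorins and plexins, the brightest probe sets of Sema4b and Plxnc1 lay lower in the KO samples after normalization, Sema4d was near equal, and Plxnd1 was higher with overlapping groups. As deposited, the signs of some of these small differences turned, as given below.

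The brightest Nrp1 probe set (1418084_at) read 100.5, 144.9, 99.4 and 83.8 signal units in KO samples 4 to 7, and 25.5, 21.8 and 26.4 in WT samples 5 to 7. The groups did not overlap, and the lowest KO value was well above the highest WT value. After normalization the mean log2(signal + 16) was 6.79 ± 0.28 (SD, n = 4) in the KO samples, and 5.45 ± 0.24 (SD, n = 3) in WT samples, a difference of 1.34 ± 0.18 (SE), or 2.53-fold. The constant of 16 is added before the logarithm and understates the change of dim genes such as this one.

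The probe set 1448943_at of Nrp1 read 105.4, 73.3, 77.5 and 108.4 signal units in KO samples 4 to 7, and 22.5, 36 and 23.2 in WT samples 5 to 7. Here KO sample 5, the highest on the first probe set, was the lowest of its group, so the order within the group was not shared. The normalized log2 means were 6.61 ± 0.23 (SD, n = 4) in the KO samples, and 5.52 ± 0.25 (SD, n = 3) in WT samples, a difference of 1.08 ± 0.17 (SE), or 2.12-fold. The dimmest, 1448944_at, read 53.7, 40.1, 47.4 and 40.3 units in KO, and 17.1, 18.7 and 17.3 in WT, again with no overlap. Its normalized log2 means were 5.84 ± 0.10 (SD, n = 4) in the KO samples, and 5.16 ± 0.13 (SD, n = 3) in WT samples, a difference of 0.69 ± 0.10 (SE), or 1.61-fold.

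The WT readings of Nrp1 stood close to the array's floor. Background was taken from 27 control probe sets without a target in the sample, as the 95th percentile of their 189 readings, 13.64 signal units, and all WT readings of Nrp1 lay above it, at 17.1 to 36 units. Probe sets entered the fit across the array when their mean over all 7 samples was above the 40th percentile, a log2 level of 5.54. All 3 Nrp1 probe sets had a WT mean under that level and a KO mean above it, so they entered through the KO samples. The platform annotation assigns all 3 to the same transcript accession.

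Nrp2 (1426528_at) read 7.5, 25.9, 26.8 and 14.9 signal units in KO samples 4 to 7, and 30.1, 30.6 and 37.1 in WT samples 5 to 7. All KO values lay below all WT values, and KO sample 4 was below background. The normalized log2 means were 5.04 ± 0.43 (SD, n = 4) in the KO samples, and 5.74 ± 0.34 (SD, n = 3) in WT samples, a difference of -0.70 at a mean level too low to enter the fit. The difference was -0.52 as deposited, and it kept its sign under median centring and cyclic loess.

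**Figure D1:**
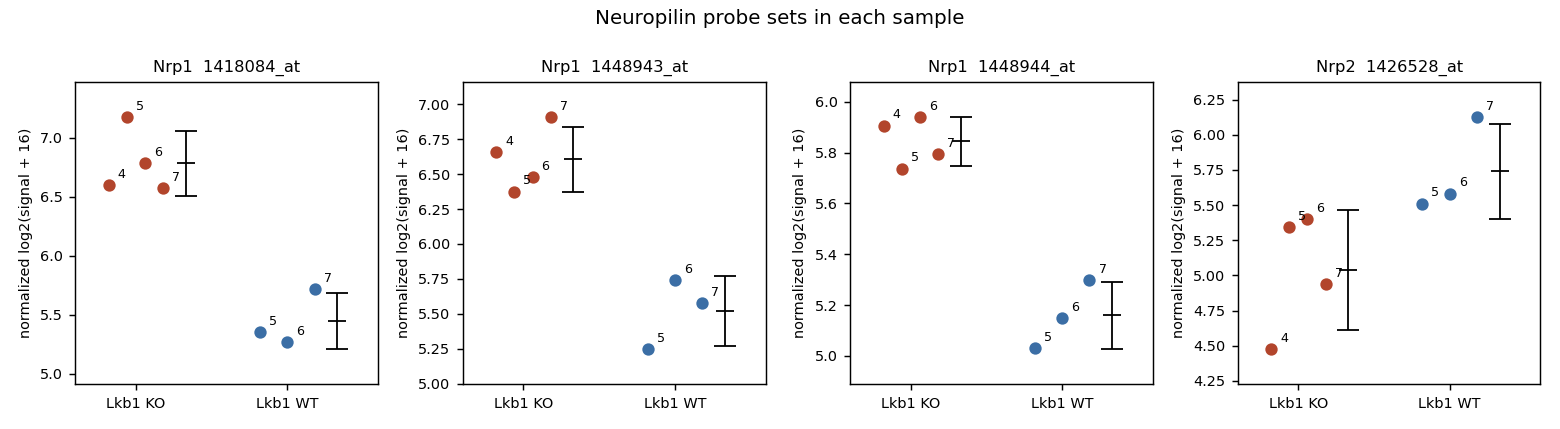
Normalized log2(signal + 16) of the 3 Nrp1 probe sets and the Nrp2 probe set in each Lkb1 KO sample (left, red, numbers 4 to 7) and each Lkb1 WT sample (right, blue, numbers 5 to 7). Points are samples with their numbers, bars beside them are the mean ± SD, and the vertical axes do not start at 0 and differ between panels. All KO points lie above all WT points for Nrp1 and below them for Nrp2.

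Across the array, 13575 probe sets entered the fit with limma and 554 of them (4.08%) passed an adjusted p of 0.05 after Benjamini-Hochberg adjustment, 288 higher in KO (2.12%) and 266 lower (1.96%). Of the 17 member probe sets 10 entered, and 3 passed, all of Nrp1 and all higher. Nothing is read from that count, since the members were chosen on this contrast. Among the rises of all tested probe sets, the Nrp1 probe sets stood at positions 10, 19 and 206 by size. Groups without overlap were found for 5 of the 10 member probe sets that entered, 3 of them of Nrp1, against 22.5% of all tested probe sets. Over all 17 member probe sets they were 6, as Nrp2, too dim to enter, was also apart. Nothing is read from these counts either, since the members were chosen on this contrast. The median difference was -0.15 over the 10 member probe sets that entered, which are of 7 genes, and 0.01 over all 13575 probe sets.

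The size of the Nrp1 differences varied with the samples kept. With 1 sample left out, the brightest probe set ranged from 1.20 to 1.51 and 1448943_at from 0.94 to 1.21. The probe set 1448944_at entered 3 of the 7 such fits, at 0.62 to 0.78, as its mean fell below the filter without any 1 of the KO samples. With the Actb ratio as a covariate the 3 differences were 1.77, 0.58 and 0.66. None of the 3 was called in that fit or without WT sample 5 or WT sample 6, and with no filter on dim probe sets the first alone was called.

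Sema4d encodes CD100, a membrane semaphorin that binds plexins of class B and, on lymphocytes, CD72. Its brightest probe set, 1420824_at, read 789.4, 704, 614 and 615.5 signal units in KO samples 4 to 7, and 675.9, 533.7 and 410.9 in WT samples 5 to 7. The normalized log2 means were 9.26 ± 0.05 (SD, n = 4) in the KO samples, and 9.34 ± 0.09 (SD, n = 3) in WT samples, and the groups overlapped. The difference was -0.08 ± 0.09 (SE), and its sign turned to 0.35 as deposited and 0.08 with median centring. Its other probe sets were at or near background, with 1420823_at below background on all 7 arrays and 1434596_at at 2.6 to 16.4 units in KO, against 2.3 to 24.6 units in WT.

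Sema4b, another membrane semaphorin of class 4, read 302.7, 259.5, 179.9 and 158.8 signal units on 1455678_at in KO samples 4 to 7, and 244.2, 263.8 and 191.6 in WT samples 5 to 7. The deposited values overlapped. After normalization all KO values lay below all WT values, at 7.72 ± 0.29 (SD, n = 4) in the KO samples, and 8.17 ± 0.15 (SD, n = 3) in WT samples, a difference of -0.46 ± 0.17 (SE) that was -0.08 as deposited. The separation was narrow, with KO sample 4 at 7.99 just under WT sample 5. The other probe set, 1427586_at, was above background in 1 of 4 KO samples and 0 of 3 WT samples.

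Sema4a, a class 4 semaphorin known for costimulation of T cells, read 169.9, 186.8, 130.8 and 138.9 signal units on 1438934_x_at in KO samples 4 to 7, and 186.7, 156.9 and 94 in WT samples 5 to 7. The groups overlapped, and the normalized difference was -0.22 ± 0.13 (SE), which turned to 0.13 as deposited. Its suffix marks a probe set whose probes may also bind other transcripts. The dimmer 1448110_at, which did not enter the fit, read 27.9 to 38.7 units in KO, against 19 to 38.3 in WT, a difference of 0.06.

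Plxnc1 is the receptor of Sema7a. Its brightest probe set, 1450905_at, read 1053.7, 1143.8, 922.5 and 838.6 signal units in KO samples 4 to 7, and 1168.3, 925.6 and 639.8 in WT samples 5 to 7. The deposited values overlapped and the normalized values did not, KO sample 5 at 9.95 being just under WT sample 7. The normalized log2 means were 9.78 ± 0.13 (SD, n = 4) in the KO samples, and 10.06 ± 0.14 (SD, n = 3) in WT samples, a difference of -0.28 ± 0.11 (SE) that turned to 0.15 as deposited. On 1423213_at the signals were 888.3, 841.9, 639.3 and 585.5 units in KO, and 672, 829.6 and 631.6 in WT. Its groups overlapped, and its difference of -0.39 ± 0.15 (SE) turned to 0.04 as deposited. The 2 dim Plxnc1 probe sets, 1423214_at and 1450906_at, read 5.1 to 40.2 units in KO, against 10.7 to 37.2 in WT, with differences of -0.16 and -0.01.

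Plxnb2 is a plexin of class B that binds class 4 semaphorins, Sema4d among them. It read 60.8, 53.2, 70.8 and 90.6 signal units in KO samples 4 to 7, and 79, 58.9 and 57.2 in WT samples 5 to 7. The groups overlapped, and the normalized difference was -0.22 ± 0.18 (SE), which turned to 0.06 as deposited.

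Plxnd1 is the receptor of Sema3e and is best known from blood vessels. It read 90.5, 65.3, 99.5 and 76.8 signal units in KO samples 4 to 7, and 66.7, 38.2 and 37.7 in WT samples 5 to 7. As deposited, only WT sample 5 reached the KO range. The normalized log2 means were 6.50 ± 0.23 (SD, n = 4) in the KO samples, and 6.09 ± 0.27 (SD, n = 3) in WT samples, a difference of 0.40 ± 0.17 (SE) with overlap, which was 0.66 as deposited. On the deposited scale, where 15.1% of all tested probe sets were called, this probe set was among them.

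**Figure D2:**
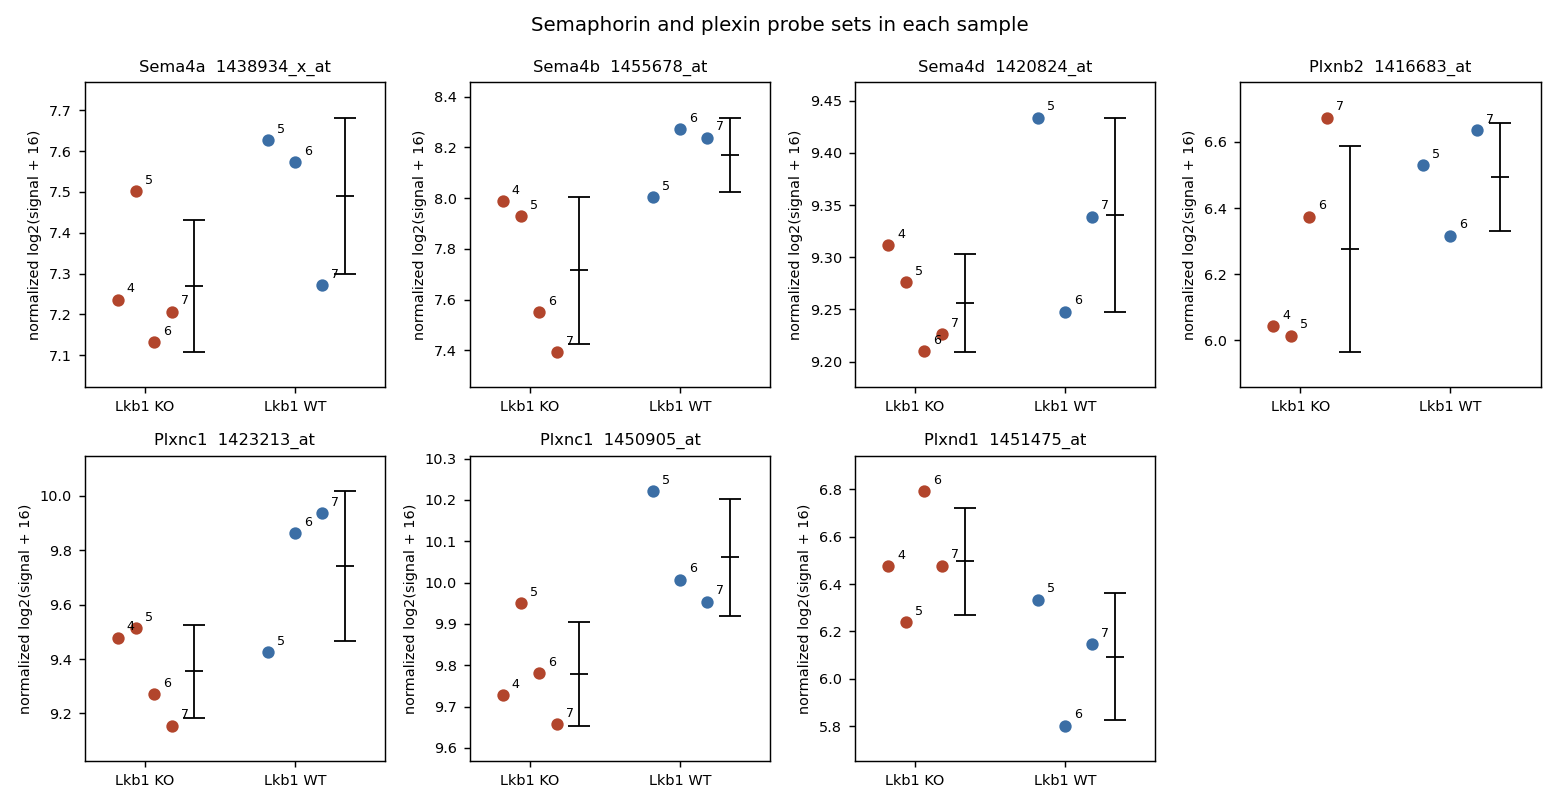
Normalized log2(signal + 16) of the 7 semaphorin and plexin probe sets that entered the fit, in each Lkb1 KO sample (left, red) and each Lkb1 WT sample (right, blue). Points are samples with their numbers, bars beside them are the mean ± SD, and the vertical axes do not start at 0 and differ between panels. The groups are apart for Sema4b and for Plxnc1 1450905_at, each by a narrow gap, and overlap in the other 5 panels.

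The sign of the smaller differences depended on the scaling between arrays. Without normalization the median difference over all tested probe sets was 0.35, and 5 of the 10 member probe sets that entered turned from lower to higher in KO, namely the brightest of Sema4a and Sema4d, that of Plxnb2 and both of Plxnc1. Only Sema4d turned with median centring, and none of the 10 turned with cyclic loess. The 3 Nrp1 differences were positive under all 4 scalings, at 1.58, 1.31 and 0.86 as deposited.

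**Figure D3:**
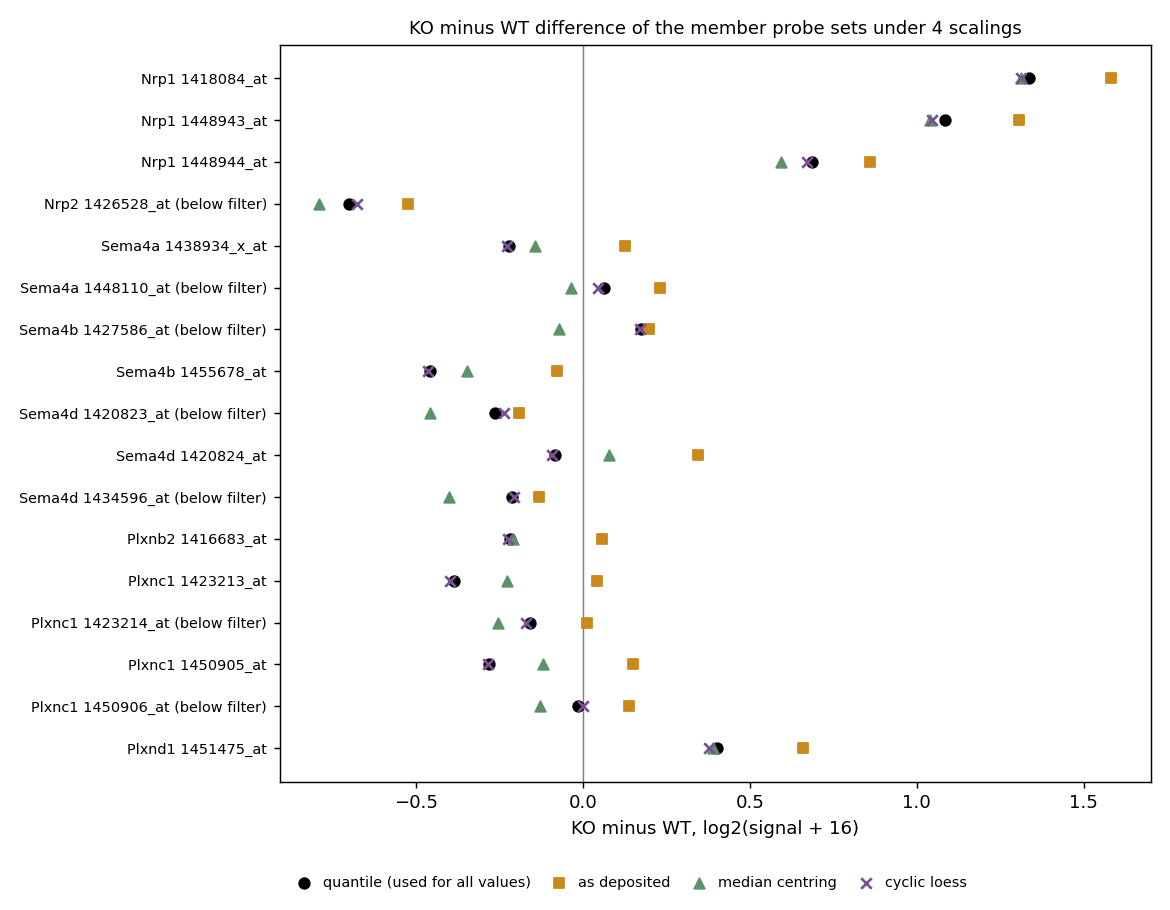
KO minus WT difference in mean log2(signal + 16) for each of the 17 member probe sets under 4 scalings, with quantile normalization as black circles. The horizontal axis is in log2 units, 0 is no difference, and "below filter" marks probe sets too dim to enter the fit. Nrp1 lies right of 0 and Nrp2 left of it under every scaling, while 7 of the 17 change sign between quantile normalization and the deposited scale.

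Further cell types that marrow holds outside the progenitor gate were followed through their markers, since neuropilins, semaphorins and plexins are also known from vascular and immune cells. The 10 endothelial markers summed to 259.7 to 311.6 in KO, against 257.9 to 302.0 in WT on the normalized signal scale (exact permutation p = 0.857), with 3 of the 10 above background on every array. Of those 3, Plvap (44.1 to 63.7 in KO, against 25.0 to 40.5 in WT) and Tie1 (40.5 to 51.8 in KO, against 29.1 to 36.0 in WT) were higher in every KO sample. Emcn overlapped, with its lowest values in KO, at 17.9 to 45.4 in KO, against 36.2 to 56.9 in WT. The other 7 markers overlapped too. The part of endothelial cells in the Nrp1 and Plxnd1 values was not tested. Dendritic and plasmacytoid dendritic markers, measured for 11 of 13 genes, summed to 1123.9 to 2055.5 in KO, against 1602.5 to 1652.0 in WT (p = 0.486 by the same exact test). Macrophage markers summed to 464.0 to 626.9 in KO, against 552.1 to 617.2 in WT (exact permutation p = 0.771), with Marco below background on every array. T cell markers summed to 341.1 to 501.6 in KO, against 439.4 to 464.9 in WT (exact permutation p = 0.771), and Cd3e, Cd3g and Trat1 were below background on all 7 arrays. B cell markers summed to 595.4 to 743.3 in KO, against 598.4 to 774.8 in WT (exact permutation p = 0.743), with Cd79a and Pax5 below background throughout. The sums of these 5 lists overlapped between the groups, as did each dendritic and macrophage marker measured. Plvap and Tie1 did not overlap, nor did Cd3g and Pax5, the latter pair at readings below background.

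The other genes of the pathway were taken as 82 gene symbols in 6 roles, with Figf and Vegfd both naming the same gene. Of the symbols 69 had a probe set and 38 were bright enough to enter the fit, on 58 probe sets. None rose and 6 probe sets of 5 genes fell past limma's adjusted p of 0.05, against 2.12% and 1.96% of all tested probe sets, with 3203 of the 13575 at an unadjusted p under 0.05. The median difference over the 58 was -0.04. Without normalization between arrays none of the 6 passed, though each stayed negative, and 3 other probe sets were higher instead. With no filter, or with the Actb ratio as a covariate, 0 rose and 0 fell.

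Of 17 other semaphorins listed, 14 had a probe set of their own and 3 were bright enough to test. Only Sema4g, a further class 4 member, fell. Its log2 level was 5.82, 5.87, 5.77 and 5.48 in KO samples 4 to 7, and 6.26, 6.41 and 6.34 in WT samples 5 to 7, a difference of -0.60 ± 0.12 (SE, limma adjusted p = 0.0367). Sema6c differed by -0.17 ± 0.33 (adjusted p = 0.801) and was 0.02 as deposited. Of 6 other plexins listed, 4 had a probe set of their own. Only Plxna3, a partner of neuropilins in class 3 semaphorin receptors, entered the fit, at -0.05 ± 0.11 (adjusted p = 0.846) and 0.28 as deposited.

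Among VEGF ligands and other receptors or partners, 1 of 9 tested probe sets fell and none rose. Vegfc, a growth factor of lymphatic vessels that also binds Nrp2, was 5.83, 6.02, 5.71 and 5.58 in KO samples 4 to 7, and 6.51, 6.30 and 6.36 in WT samples 5 to 7. Its difference was -0.61 ± 0.12 (SE, limma adjusted p = 0.04), and the groups did not overlap. L1cam, an adhesion molecule that associates with Nrp1, differed by -0.37 ± 0.13 (adjusted p = 0.144).

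Small GTPases and their regulators had 3 of 18 tested probe sets lower and none higher. Rras encodes R-Ras, a GTPase that plexins inactivate and that activates integrins. Its log2 level was 7.83, 8.05, 7.75 and 7.52 in KO samples 4 to 7, and 8.60, 8.54 and 8.72 in WT samples 5 to 7, with no overlap. The difference was -0.84 ± 0.13 (SE, limma adjusted p = 0.0259). Arhgef12 encodes LARG, an exchange factor for RhoA that binds class B plexins, and it fell on both probe sets that entered, while a further one, too dim to enter, was at 0.09. Their differences were -0.86 ± 0.17 (SE, adjusted p = 0.0389) and -0.85 ± 0.16 (SE, adjusted p = 0.0332).

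The kinases, CRMPs, MICALs and cytoskeletal effectors had no call among 20 tested probe sets. Limk2, a kinase of the actin-severing protein cofilin, differed by -0.42 ± 0.11 (SE, limma adjusted p = 0.0641) and Mical1, an actin-oxidizing enzyme downstream of plexins, by 0.27 ± 0.11 (SE, adjusted p = 0.197), with another Mical1 probe set at -0.04. As deposited, the first of these Mical1 probe sets passed at 0.62 (adjusted p = 0.0482), as did the kinase gene Fes at 0.79 (adjusted p = 0.0392) and the GTPase gene Rhoa at 0.78 (adjusted p = 0.0252). Of the proteases that process semaphorins, 1 of 7 tested probe sets fell. It was the brightest of Adam17, a sheddase of membrane proteins, with 9.67, 9.48, 9.32 and 9.44 in KO samples 4 to 7, and 10.05, 10.10 and 10.12 in WT samples 5 to 7. Its difference was -0.61 ± 0.11 (SE, limma adjusted p = 0.0301). The other Adam17 probe sets that entered were at -0.07 and -0.40 and did not pass. Adam10, a related sheddase, differed by 0.44 ± 0.17 (adjusted p = 0.168) on 1 probe set and by -0.26 ± 0.10 (adjusted p = 0.177) on another. With any 1 sample left out, 0 to 2 probe sets of the pathway fell.

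**Figure D4:**
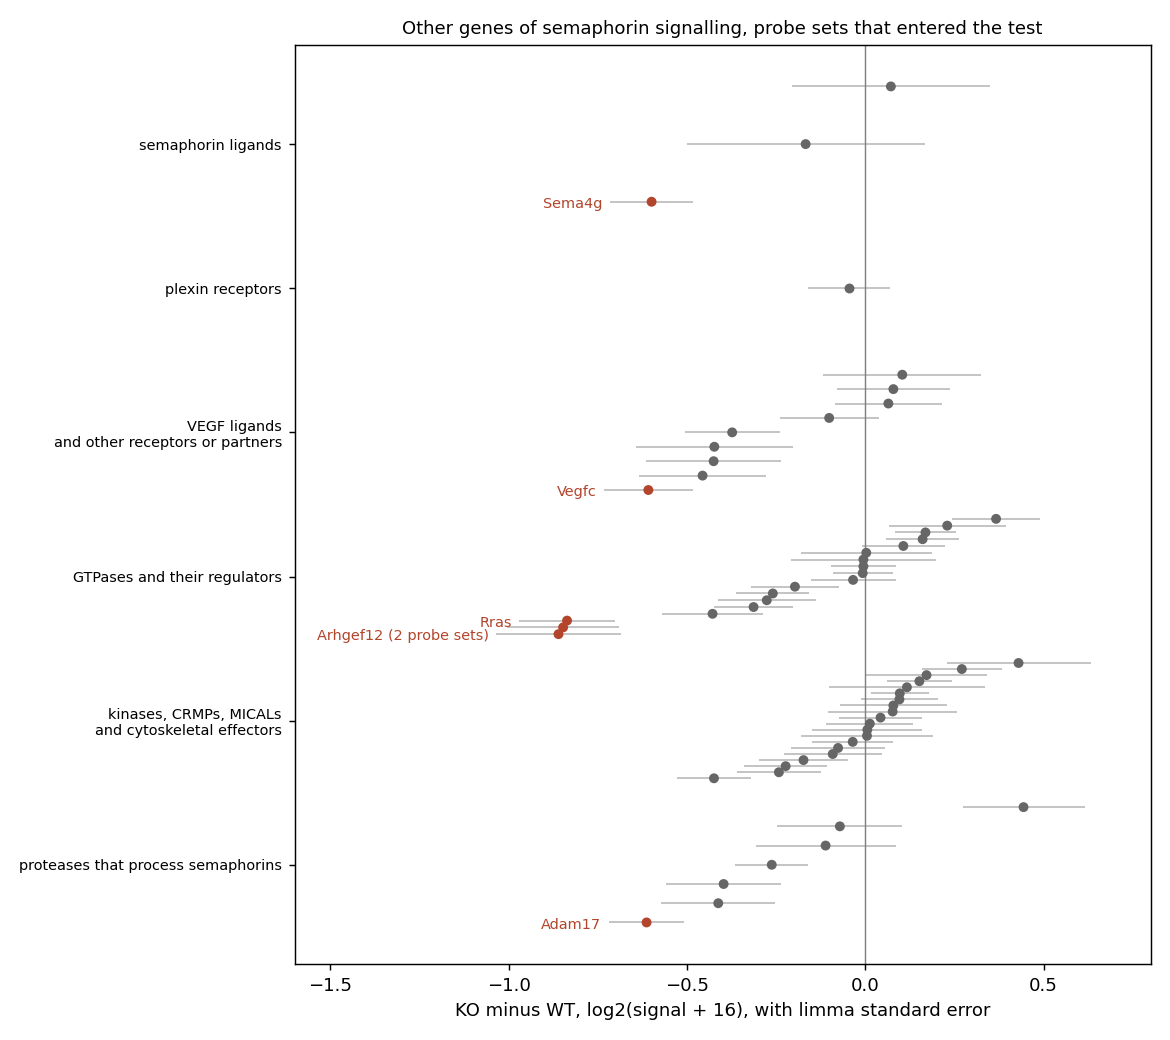
KO minus WT difference in mean log2(signal + 16), with limma's standard error as horizontal lines, for the 58 probe sets of other semaphorin pathway genes that entered the fit, grouped by role. Red points with gene names are the 6 probe sets past an adjusted p of 0.05. All 6 lie left of 0, between -0.86 and -0.60.

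Plxnd1 lies on chromosome 6, as does the Rosa26 locus that carries Cre in the KO mice alone, with 77 annotated genes between them on GRCm38.p6, 49 of them protein-coding. Of the 23 probe sets tested from Rosa26 to Plxnd1, 3 rose and 1 fell, where 2.12% and 1.96% of all tested probe sets did. Groups did not overlap for 6 of the 23, against 22.5% of all tested probe sets. Those that rose were of Arpc4, an actin-branching complex subunit, at 0.94 ± 0.13 (SE, limma adjusted p = 0.0216), Sec13, a coat protein of secretory vesicles, at 0.78 ± 0.16 (SE, adjusted p = 0.0414), and Tamm41, an enzyme of cardiolipin synthesis, at 0.51 ± 0.10 (SE, adjusted p = 0.0404). The kinase gene Camk1 fell at -0.56 ± 0.11 (SE, adjusted p = 0.037). The other Arpc4 probe set lay the opposite way, at -0.47 (adjusted p = 0.128), and Gt(ROSA)26Sor itself was at -0.42 (adjusted p = 0.2). Whether DNA linked to the Cre allele and loss of Lkb1 each bear on the Plxnd1 value cannot be told apart. With any 1 sample left out, 0 to 1 of these probe sets rose and 0 fell.

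The genes whose pattern over the 7 samples was nearest to the brightest Nrp1 probe set were found by the root mean square difference of log2 values, each centred on its own mean. Nearest was Ly86, the MD-1 partner of the receptor RP105, at 0.23 log2 units. Next came Sumf1, an activator of sulfatases, at 0.24, Ctse, the protease cathepsin E, at 0.25, and Lgals1 (galectin-1) and Cst7 (cystatin F) at 0.27 each. Genes found in this way are bound to lie higher in KO, since the Nrp1 probe set used was itself higher in every KO sample. All 5 were higher in the KO samples, by 1.17 ± 0.12, 1.01 ± 0.12, 1.26 ± 0.18, 1.04 ± 0.10 and 0.98 ± 0.12 (SE), in that order. The other Nrp1 probe sets stood at positions 64 and 79 of this order, at 0.39 and 0.40.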

How the data were processed

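Signal intensities, 1 per probe set and array, were used as the authors deposited them, on a linear scale. MAS5 is named in the submitters' processing notes, and no version, setting or scaling is given in the sources used here. The array name in the labels is that of a larger design than the 22690 probe sets deposited, which include 64 controls. Through the platform annotation 20380 probe sets had 1 symbol, 691 had several and 1555 had none, and 20351 of the first matched the GRCm38.p6 gene table.

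Intensities were quantile-normalized between arrays, without the controls, and taken as log2(signal + 16). Probe sets with a mean above the 40th percentile were fitted by genotype with limma's lmFit and eBayes (limma version 3.58.1, R version 4.3.3, residual degrees of freedom 5). P-values were adjusted by Benjamini-Hochberg over all 13575. The number of arrays limits the precision. Exact permutation tests, two-sided, were used for single values per sample. On simulated data limma recovered 69 of 100 probe sets changed by 1 log2 unit and 25 of 100 changed by 0.5, with 4 false calls among 98. The simulated noise was independent between probe sets, and all changes were placed above the filter level. These rates therefore need not hold for the arrays themselves.

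The members, the pathway and marker lists and the tests were chosen with earlier results of these data known. Genes named were all members, Stk11, Kit and Ly6a, pathway genes past the threshold, in each role the 2 tested genes of lowest p, the 5 nearest to Nrp1 in pattern, and genes from Rosa26 to Plxnd1 past the threshold. Rhoa, Fes, Gt(ROSA)26Sor and the marker genes below background lie outside this rule and were named after their values were seen. Alternatives were another pseudocount, scaling, filter or choice of probe set, array weights, a prior with an intensity trend, the replicate number as a block, the Actb ratio as covariate, and each sample left out in turn.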

Additional observations from a re-analysis of the deposited data

Results flagged for a closer look

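The dim Sema4b probe set 1427586_at had 1 KO sample far from the others. KO sample 7 was at 5.05 on the normalized log2(signal + 16) scale, while the other KO samples lay between 4.14 and 4.24. The gap was 0.895 of the range of the 4 KO samples, above Dixon's critical value at the 95% level. The KO groups of all 17 member probe sets were examined, 1 was picked out, and chance alone picks out about 1 in 20. The reading was 17.6 signal units as deposited, above the background of 13.64, and on the other Sema4b probe set the same sample was the lowest of its group, at 7.39.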

How the results depend on the processing

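Counts of calls are of probe sets higher and lower in KO, and the cause of each shift was not tested. Over all probe sets (288 and 266) they were 468 and 437 with a pseudocount of 64, 1999 and 45 as deposited, 784 and 186 with median centring, 20 and 47 with no filter, 576 and 474 with a filter at the 60th percentile, 635 and 537 with an intensity trend, 0 and 2 with the Actb ratio, where 1155 had an unadjusted p under 0.05, and 11 to 46 and 35 to 68 without 1 sample. Higher calls made up 97.8% as deposited and 80.8% with median centring, against 52%. Member calls, which describe probe sets chosen on this contrast, were 3, all higher, and 1 with no filter, 0 at the 60th percentile, where no Nrp1 probe set entered, 1 with the brightest probe set of each gene, 0 with the Actb ratio (1.77, 0.58 and 0.66), 4 as deposited, with Plxnd1, and 0 to 2 without 1 sample. Pathway calls were 3 and 0 as deposited, 0 lower with no filter or the Actb ratio and 0 to 2 lower without 1 sample. From Rosa26 to Plxnd1 they were 0 and 0 with no filter or the Actb ratio, 0 lower as deposited or at the 60th percentile, and 0 to 1 higher and 0 lower without 1 sample. Deviations from the group mean correlated at 0.03, 0.12 and 0.02 between KO and WT samples sharing numbers 5 to 7. Other pairs of a KO and a WT sample gave -0.104 to 0.093. For each of KO samples 5 to 7 the shared number gave the highest value. Such small values cannot settle whether the samples are paired by their replicate numbers. With them as a replicate block, which left 2 residual degrees of freedom, all probe sets gave 0 higher and 2 lower (2576 at an unadjusted p under 0.05 with limma), members, pathway and Rosa26 to Plxnd1 gave 0, and Nrp1 was at 1.40, 1.07 and 0.66. Signs turned for Sema6c (0.015 as deposited, 0.13 without KO sample 6, 0.016 without WT sample 5, -0.37 to 0.13 without 1 sample) and Plxna3 (0.28 as deposited, 0.014 with median centring, 0.026 without WT sample 5, -0.108 to 0.026 without 1 sample), neither called. Of 196 member values 176 moved by less than 1 SD, though some of these could not move. Settings that change only the filter, the choice of probe set or the prior leave a probe set's difference as it was. Signals near background limit Nrp2, WT Nrp1 and the dim probe sets of Sema4b, Sema4d and Plxnc1.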
